A study of Homo sapiens with 82 samples.

Results

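The transcripts analysed here encode 9 subunits or partners of the transcription factor AP1 (JUN, JUNB, JUND, FOS, FOSB, FOSL1, FOSL2, ATF3 and BATF2), taken by gene symbol from the 51838 rows of the RNA-seq count tables. Each symbol had 1 row at each time point, and 9 of 9 passed the filter on low counts in every fit. RNA was sequenced from HT29 cells, an established line of human colorectal adenocarcinoma, in 32 libraries. Cells had been kept in phenol-red-free medium with charcoal-treated serum. They then received the carrier DMSO or 1 of 3 agonists (GW3965, T0901317, rosiglitazone), each at 10 μM. Each treatment was sampled at 24 h and at 48 h with 4 replicates, which gave 8 groups. GW3965 and T0901317 are synthetic agonists of the liver X receptors (LXRs), and rosiglitazone is an agonist of PPARG. All groups were made from this single cell line, so the values describe 1 genetic background. According to the study's methods, treatments were done in quadruplicate. Neither they nor the labels say whether the replicates were independent cultures, and the p-values therefore measure only the spread between these libraries.

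AP1 is a family of dimers that bind DNA through a basic leucine zipper (bZIP). JUN proteins pair with each other or with FOS proteins, which do not form stable dimers among themselves, and ATF3 and BATF2 can join JUN proteins in the same way. Growth factors and stress signals induce many of these genes within minutes through MAP kinases, and in colorectal epithelium AP1 is best known as an effector of EGFR, RAS and Wnt signalling.

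Total counts lay between 21044798 and 51332656 per library, and the lowest count of any subunit in any library was 14, for BATF2. Levels are given as CPM, in which counts are scaled to a common library total, with TMM factors over all 32 libraries. They are compared between groups but not between genes, since no gene lengths were used. All 11 markers of colon epithelium were detected, with CDX1 the lowest at 0.735 to 4.02 CPM. Of 12 counted markers of fibroblasts, leukocytes and endothelium, 8 had a median of at most 0.2 CPM, among them PTPRC, CD3E, COL3A1 and CDH5. The rest were COL1A1, LUM, CD14 and CD68, with medians of 5.80, 0.985, 1.75 and 11.2 CPM. Replicate 1 of GW3965 at 24 h stood apart for several subunits, with JUND at 86.1 CPM against 134, 140.1 and 141 CPM in the other replicates. The mitochondrial share of counts of replicate 1 of GW3965 was 3.06%, against 2.23% to 2.46% in the other GW3965 replicates at 24 h. Replicate 3 of DMSO at 24 h was similar, at 3.04% against 2.57% to 2.65% in the other DMSO replicates. It was the lowest DMSO replicate at that hour for JUN, JUNB, FOSL1 and FOSL2. It stayed in the fits without the GW3965 library. Whether these deviations are related was not tested. Results at 24 h that change without replicate 1 of GW3965 are given with and without that library. The 24 h and 48 h libraries form separate deposited tables, and no group is in both, so a change over time cannot be told apart from any other difference between the tables.

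Upstream sequence of the start site is shown for 4 members. At 48 h JUN, FOS and ATF3 were lower than in DMSO with both LXR agonists and BATF2 was higher. JUNB, JUND, FOSB, FOSL1 and FOSL2 were lower with both as well, so these changes did not single out the members shown. RefSeq entries (GRCh38.p14) matched 8 of 9 members, FOSL1 being the exception, and ATF3 had entries for 2 start sites, of which the first is shown. Each line gives the 250 bases before the start, 5′ to 3′ on the gene's strand, with the ATF/AP1-type element TGACATCA and the shorter CRE core TGACG in capitals.
JUN, chr1:58784048-58784297, minus strand: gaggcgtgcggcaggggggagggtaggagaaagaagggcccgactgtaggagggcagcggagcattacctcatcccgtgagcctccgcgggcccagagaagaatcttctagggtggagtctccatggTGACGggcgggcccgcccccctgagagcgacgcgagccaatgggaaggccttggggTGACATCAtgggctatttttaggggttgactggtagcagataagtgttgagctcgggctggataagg
FOS, chr14:75278578-75278827, plus strand: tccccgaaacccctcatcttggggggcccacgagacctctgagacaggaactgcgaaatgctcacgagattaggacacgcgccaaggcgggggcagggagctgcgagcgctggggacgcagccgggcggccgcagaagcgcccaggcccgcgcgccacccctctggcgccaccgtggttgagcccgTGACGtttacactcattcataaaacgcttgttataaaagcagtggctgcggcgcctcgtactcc
ATF3, chr1:212565157-212565406, plus strand: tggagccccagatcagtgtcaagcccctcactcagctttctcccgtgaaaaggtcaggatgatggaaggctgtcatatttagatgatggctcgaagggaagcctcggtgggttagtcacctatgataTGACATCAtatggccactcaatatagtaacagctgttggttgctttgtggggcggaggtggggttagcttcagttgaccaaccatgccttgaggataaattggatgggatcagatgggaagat
BATF2, chr11:64990278-64990527, minus strand: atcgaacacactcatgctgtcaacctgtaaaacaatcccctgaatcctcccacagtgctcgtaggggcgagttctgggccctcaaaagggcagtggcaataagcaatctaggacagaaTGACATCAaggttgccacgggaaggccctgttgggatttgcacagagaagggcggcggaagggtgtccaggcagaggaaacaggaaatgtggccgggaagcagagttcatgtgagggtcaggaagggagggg
Both strands were searched. TGACATCA was found upstream of JUN, ATF3 and BATF2, and in 2.37% of all 35116 promoters of this length. For ATF3 it was upstream of the first start site only, and the second had none of the motifs searched. Which start site of ATF3 was in use here was not tested. TGACG was found upstream of 6 members (JUN, JUNB, JUND, FOS, FOSB and FOSL2) and in 21.2% of all promoters. The windows of those members held 62% to 74.8% G and C, and those of ATF3 and BATF2 44.8% to 55.2%. The G and C share of all promoters is not given, and its part in this count was not tested. The full CRE TGACGTCA, which contains TGACG, was found upstream of JUND and in 1.65% of all promoters. The classical AP1 site TGACTCA was found upstream of none of the 8 matched members within these windows, against 4.2% of all promoters.

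**Figure D1:**
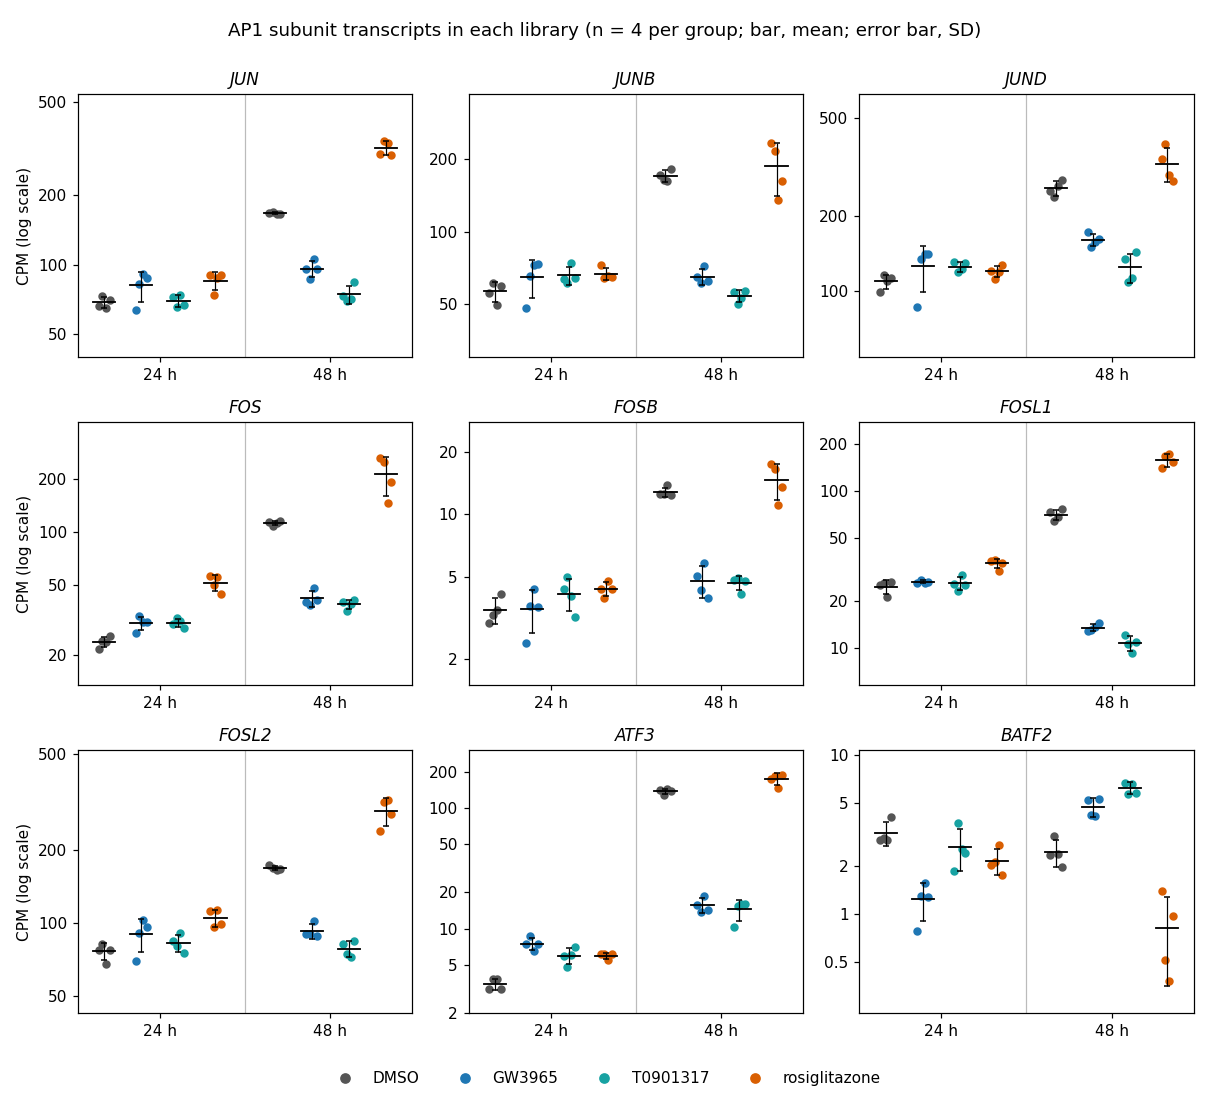
CPM on a log scale of each of the 9 transcripts in every library, with the mean and SD of the 4 replicates of each of the 8 groups. From JUN to ATF3 the DMSO and rosiglitazone groups at 48 h lie highest, and for BATF2 the GW3965 and T0901317 groups at 48 h do.

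In DMSO-treated cells, 8 of 9 subunit transcripts rose from 24 to 48 h, all of them by at least 2-fold, and none fell. Over all 23140 genes tested, 18.9% fell and 19.7% rose at the same threshold (edgeR quasi-likelihood test, Benjamini-Hochberg adjusted p under 0.01) and 5.09% rose by at least 2-fold. The median change of the members was 1.53 (log2), against 0.0016 over all genes. BATF2 was the exception, with a change of −0.39 ± 0.22 (log2, SE) and an adjusted p of 0.147. With both LXR agonists this rise was smaller or absent, and at 48 h 8 of 9 members were lower than in DMSO with GW3965 and 8 of 9 with T0901317. Of the 22470 genes tested, GW3965 lowered 17.5% and T0901317 16.1% by the same threshold. BATF2 was higher with both, as were 16.1% of genes (GW3965) and 13.9% (T0901317). Because all 3 drugs were compared with the same 4 DMSO libraries, a high DMSO level at 48 h enters each of these comparisons.

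JUN, the founding subunit, binds DNA as a homodimer or with FOS proteins. In DMSO it was at 66.4, 73.0, 65.2 and 70.7 CPM at 24 h and at 167, 169, 165 and 166 CPM at 48 h. The groups were far apart and the replicates at 48 h differed little, with a change of 1.28 ± 0.08 (log2, SE) and an edgeR adjusted p of 3.28e-14. At 48 h JUN was at 95.7, 86.8, 105 and 96.1 CPM with GW3965 and at 73.3, 69.7, 70.8 and 84.1 CPM with T0901317. Each of these libraries lay below each DMSO library, and the differences were −0.80 ± 0.07 with GW3965 and −1.16 ± 0.07 with T0901317 (edgeR adjusted p = 2.9e-08 and 2.55e-10). With rosiglitazone at 48 h JUN was at 300.4, 340.0, 333 and 298 CPM, the highest values of the gene, 1.88-fold above DMSO (edgeR adjusted p = 7.1e-09). At 24 h the 3 drugs left JUN between 63.9 and 91.2 CPM. Among those groups only rosiglitazone lay wholly above DMSO, by 0.30 ± 0.09, which missed the threshold with an edgeR adjusted p of 0.0231. The JUN difference at 24 h did pass without replicate 1 of GW3965, at 0.31 for rosiglitazone and 0.34 for GW3965, and without replicate 2 of rosiglitazone, at 0.37.

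JUNB, an immediate-early subunit that often restrains JUN, rose in DMSO from 55.7, 61.4, 49.6 and 59.6 CPM at 24 h to 172, 164, 162 and 182 CPM at 48 h. That was a 3.01-fold rise (edgeR adjusted p = 1.05e-12). With GW3965 at 48 h it was at 64.7, 61.2, 72.0 and 62.6 CPM and with T0901317 at 56.5, 50.1, 53.3 and 56.9 CPM. These values overlapped those of DMSO at 24 h and lay wholly below those of DMSO at 48 h, by 2.62-fold and 3.14-fold (edgeR adjusted p = 2.23e-08 and 2.71e-09). With rosiglitazone at 48 h the replicates spread widely, at 232, 216, 135 and 162 CPM, on both sides of DMSO. The difference from DMSO was 0.11 (log2, 95% interval −0.12 to 0.34). In the annotation JUNB overlaps HOOK2, and without a stated strand setting reads from the overlap could belong to either gene.

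JUND, the most constantly expressed JUN protein in many tissues, had the smallest range over the 8 groups, with a ratio of 2.98 between the highest and lowest group mean. In DMSO it was at 98.9, 115, 109 and 112 CPM at 24 h and at 254, 238, 265 and 281 CPM at 48 h, a rise of 1.25 ± 0.11 (log2, SE; edgeR adjusted p = 4.35e-11). With GW3965 at 48 h it was at 173, 151, 158 and 161 CPM, and with T0901317 at 134, 108, 113 and 143 CPM. All 8 of these values were under the DMSO values of that hour, by 1.62-fold with GW3965 and by 2.08-fold with T0901317 (edgeR adjusted p = 1.23e-05 and 8.7e-08). Rosiglitazone at 48 h, at 339.8, 390.4, 292 and 277 CPM, overlapped DMSO at its lowest replicate and differed by 0.30 ± 0.10 (edgeR adjusted p = 0.0229). Without replicate 4 of rosiglitazone the difference was 0.37 with an edgeR adjusted p of 0.0075. At 24 h JUND with GW3965 was at 0.20 above DMSO (log2, edgeR adjusted p = 0.417) with all libraries, and at 0.35 (adjusted p = 0.00049) without replicate 1 of GW3965.

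FOS, the prototype of the FOS proteins and an immediate-early gene, was the subunit most clearly higher with rosiglitazone at 24 h. It was at 21.6, 24.2, 23.9 and 25.6 CPM in DMSO and at 56.4, 49.98, 56.01 and 44.7 CPM with rosiglitazone, a 2.16-fold difference without overlap (edgeR adjusted p = 7.28e-09). Both LXR agonists also lay wholly above DMSO at 24 h, at 26.8 to 33.4 CPM and 28.6 to 32.6 CPM, but missed the threshold (edgeR adjusted p = 0.0136 and 0.0177). Without replicate 1 of GW3965 at 24 h both passed, at 0.41 for GW3965 and 0.36 for T0901317. GW3965 also passed without replicate 4 of rosiglitazone, at 0.35.

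At 48 h FOS was at 115, 109, 112 and 116 CPM in DMSO, 4.74-fold above DMSO at 24 h (edgeR adjusted p = 1.08e-16). It was at 40.0, 38.5, 48.5 and 41.4 CPM with GW3965 and at 40.0, 35.7, 39.2 and 41.0 CPM with T0901317. The groups of both LXR agonists overlapped each other and lay far below DMSO, by 2.69-fold and 2.89-fold (edgeR adjusted p = 3.71e-08 and 1.6e-08). With rosiglitazone FOS was at 264, 252, 147 and 194 CPM, and even its lowest replicate was above each DMSO library. The difference from DMSO was 0.91 ± 0.13 (log2, SE; edgeR adjusted p = 1.26e-05).

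FOSB, another immediate-early FOS protein, was counted least among the FOS genes, with 103 to 663 counts per library. In DMSO it rose from 2.99, 3.29, 3.44 and 4.15 CPM to 12.5, 12.5, 13.7 and 12.4 CPM, by 3.68-fold (edgeR adjusted p = 3.79e-12). With GW3965 at 48 h it was at 5.02, 4.33, 5.85 and 3.96 CPM and with T0901317 at 4.84, 4.96, 4.14 and 4.77 CPM. Both groups were below DMSO without overlap, by 2.67-fold and 2.73-fold (edgeR adjusted p = 6.11e-08 and 4.94e-08). Rosiglitazone at 48 h, at 11.1 to 17.3 CPM, spanned the DMSO values and differed by 0.17 (log2, 95% interval −0.07 to 0.42). At 24 h no drug passed for FOSB, and the 4 group means lay between 3.47 and 4.36 CPM.

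FOSL1, which encodes FRA1, is linked to invasive growth in epithelial tumours. It was the only member whose fall from 24 to 48 h with the LXR agonists passed the threshold. With GW3965 it went from 25.8, 27.2, 26.1 and 26.5 CPM to 12.8, 13.1, 13.6 and 14.4 CPM, and with T0901317 from 25.6, 23.2, 29.3 and 25.3 CPM to 12.1, 10.6, 9.26 and 10.9 CPM. The falls were 1.95-fold and 2.41-fold, each without overlap (edgeR adjusted p = 8.63e-11 and 4.5e-13). In DMSO it rose over the same hours from 25.2, 25.8, 21.04 and 26.3 CPM to 73.4, 64.7, 68.3 and 76.98 CPM, by 1.53 ± 0.08 (log2, SE; edgeR adjusted p = 1.76e-16). Against DMSO at 48 h FOSL1 was therefore 5.27-fold lower with GW3965 and 6.59-fold lower with T0901317 (edgeR adjusted p = 8.21e-14 and 2.08e-14). With rosiglitazone it was at 36.05, 36.5, 31.1 and 34.98 CPM at 24 h and at 139.8, 167, 172 and 152 CPM at 48 h. Both groups lay above their DMSO group, by 0.49 ± 0.08 at 24 h and 1.14 ± 0.08 at 48 h (edgeR adjusted p = 0.000136 and 1.61e-09). Between rosiglitazone and T0901317 at 48 h, the group means of FOSL1 differed by a ratio of 14.7.

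FOSL2, which encodes FRA2, rose in DMSO from 77.7, 82.3, 67.8 and 77.8 CPM to 174, 168, 166 and 168 CPM, by 2.21-fold (edgeR adjusted p = 7.39e-12). At 48 h it was at 89.9, 90.2, 102 and 88.5 CPM with GW3965, at 81.6, 74.2, 72.2 and 84.5 CPM with T0901317 and at 239, 314, 323 and 282 CPM with rosiglitazone. The LXR agonist groups lay wholly below DMSO and the rosiglitazone group wholly above it. The differences were −0.87 ± 0.08, −1.11 ± 0.08 and 0.76 ± 0.08 (log2, SE; edgeR adjusted p = 6.42e-08, 3.11e-09 and 5.88e-07). At 24 h FOSL2 was also higher with rosiglitazone, by 0.45 ± 0.10 (edgeR adjusted p = 0.00255). That call was lost without replicate 3 of DMSO, at 0.40, and without replicate 1 or 3 of rosiglitazone, at 0.42 in both cases. With GW3965 at 24 h FOSL2 passed only without replicate 1 of GW3965, at 0.34 (adjusted p = 0.0063). FOSL2 overlaps the antisense gene FOSL2-AS1, and reads of the overlap could belong to either gene.

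ATF3, a stress-induced bZIP factor that can repress or activate depending on its partner, showed the widest range of all members, with a ratio of 49.9 between the highest and lowest group mean. In DMSO it was at 3.16, 3.8001, 3.799 and 3.17 CPM at 24 h and at 140.3, 129, 143 and 137 CPM at 48 h. No other member changed as much over time, with a 39.5-fold rise (edgeR adjusted p = 1.05e-24). At 24 h all 3 drug groups lay above DMSO without overlap, at 7.39, 8.64, 6.50 and 7.37 CPM with GW3965, at 5.95, 4.84, 6.07 and 7.01 CPM with T0901317 and at 6.09, 6.17, 5.46 and 6.16 CPM with rosiglitazone. The differences were 1.10 ± 0.12, 0.79 ± 0.12 and 0.77 ± 0.12 (log2, SE; edgeR adjusted p = 2.64e-06, 0.000395 and 8.46e-05).

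At 48 h the order of ATF3 was different. It was at 15.8, 13.8, 18.6 and 14.3 CPM with GW3965 and at 10.3, 15.4, 15.9 and 15.9 CPM with T0901317, both above their own 24 h groups and far below DMSO. The differences from DMSO at 48 h were 8.81-fold and 9.55-fold lower (edgeR adjusted p = 4.66e-13 and 3.31e-13). ATF3 with rosiglitazone was at 176, 185, 146 and 188 CPM, above each DMSO library by a fitted 0.32 ± 0.11, which missed the threshold (edgeR adjusted p = 0.0329). That difference passed without replicate 3 of rosiglitazone, at 0.39, and without replicate 1 of T0901317, at 0.33.

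BATF2, an interferon-inducible bZIP protein that can pair with JUN proteins, differed from DMSO at 48 h in the direction opposite to the other members with both LXR agonists. In DMSO it was at 2.92, 3.002, 2.94 and 4.07 CPM at 24 h and at 2.35, 3.13, 2.39 and 1.98 CPM at 48 h, with overlapping groups. With GW3965 it was at 0.787, 1.31, 1.58 and 1.29 CPM at 24 h, 2.61-fold below DMSO, and at 5.27, 4.20, 4.16 and 5.30 CPM at 48 h, 1.92-fold above DMSO. Neither pair of groups overlapped, and both differences passed (edgeR adjusted p = 0.000326 and 0.00114). With T0901317 it was at 1.86, 3.76, 2.59 and 2.43 CPM at 24 h, overlapping DMSO, and at 6.73, 5.74, 6.64 and 5.76 CPM at 48 h, 2.53-fold above DMSO (edgeR adjusted p = 3.44e-05). With rosiglitazone BATF2 fell over time, from 2.05, 2.13, 2.75 and 1.77 CPM to 1.41, 0.518, 0.381 and 0.981 CPM. At 48 h it was 2.99-fold below DMSO (edgeR adjusted p = 7.72e-05). BATF2 rests on the fewest reads of the 9 members, with 14 to 349 counts per library, and the median SD of its groups was 19.3% of the mean.

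**Figure D2:**
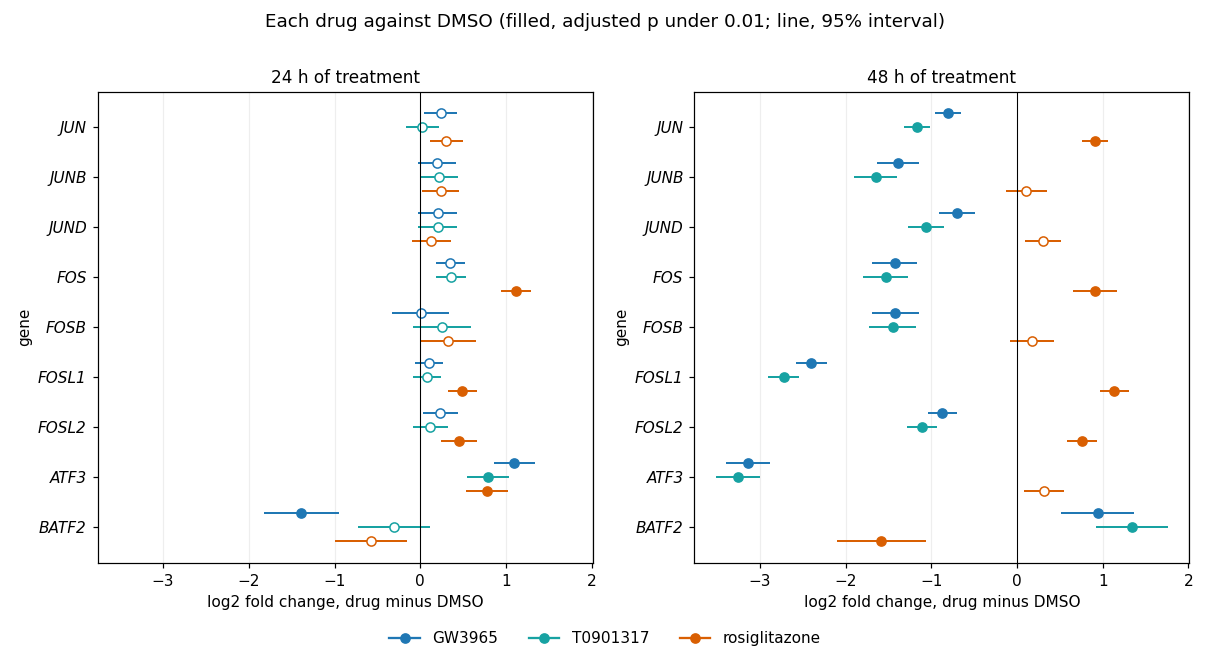
Log2 fold change of each transcript with each drug against DMSO of the same hour, at 24 h (left) and 48 h (right), with 95% intervals. Filled points passed an adjusted p under 0.01. At 48 h the points of both LXR agonists lie left of 0 for 8 members and right of 0 for BATF2.

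Counted over the members at 24 h, 1 was higher and 1 lower with GW3965 (ATF3 and BATF2), 1 was higher with T0901317 (ATF3) and 4 were higher with rosiglitazone (FOS, FOSL1, FOSL2 and ATF3). Over the 21781 genes tested, the shares higher and lower were 1.86% and 0.868% for GW3965, 1.33% and 0.119% for T0901317, and 5.81% and 6.52% for rosiglitazone. The GW3965 count depended on 1 library: without its replicate 1, 5 members were higher (FOS, FOSL2, JUN, JUND and ATF3), and without replicate 4 of rosiglitazone 2 were. For T0901317 the count became 2 without replicate 1 of GW3965, which shares the fit. No share of all genes is given for fits without 1 library, so these counts cannot be set against the shares above. At 48 h 4 members were higher with rosiglitazone (FOS, FOSL1, FOSL2 and JUN) and 1 was lower (BATF2), against 12.3% higher and 13.1% lower over all genes. Scaling by library size alone in place of TMM moved the median of all genes with rosiglitazone at 48 h by −0.18 (log2). Under it the same 4 members stayed higher, by 0.57 to 0.95, while the values of FOSB and JUNB, which had not passed, crossed to −0.0030 and −0.063.

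GW3965 and T0901317 share a receptor target but differ in chemical structure, and they were compared directly at the same dose and hours over the 9 members. At 24 h no member passed in either direction with edgeR. By the edgeR adjusted p, 0.193% of all genes tested were higher with GW3965 than with T0901317 and 0.597% were lower. An unadjusted p under 0.05 was found for 3 members, and DESeq2 called 1. The shares of all genes by those rules are not given, so these counts cannot be set against all genes. The largest difference of a member was that of BATF2, at −1.08 (log2, 95% interval −1.52 to −0.64) with an edgeR adjusted p of 0.0133. The groups of BATF2 did not overlap, as for 3.67% of all genes in that direction. It passed with DESeq2 and, with edgeR, without replicate 1 of T0901317, at −1.22. For the other 8 members the intervals at 24 h lay between −0.57 and 0.53.

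At 48 h 1 member was higher with GW3965 than with T0901317, against 5.03% of all genes, and none was lower, against 3.32%. JUN differed by 0.36 (95% interval 0.22 to 0.50, edgeR adjusted p = 0.00175), so it was less reduced by GW3965. JUND differed by the same 0.36 (0.16 to 0.56) and FOSL1 by 0.32 (0.15 to 0.49), with edgeR adjusted p of 0.0178 and 0.014, and both passed with DESeq2. The groups of JUN, JUNB, JUND, FOSL1 and FOSL2 did not overlap, GW3965 being above T0901317, as for 12.1% of all genes. JUND passed without replicate 4 of T0901317, at 0.44, and without replicate 2 of rosiglitazone, at 0.36. FOSL1 passed without replicate 1 of T0901317, at 0.39, and without replicate 1 or 3 of rosiglitazone, at 0.32 in both cases. For FOS, FOSB and ATF3 the groups overlapped, with intervals of −0.14 to 0.36, −0.24 to 0.30 and −0.12 to 0.36.

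GW3965 and rosiglitazone, at the same dose, differed at 48 h in all 9 members, 8 being lower and BATF2 higher with GW3965. Among all genes 22.4% were lower and 22.6% higher in that comparison. FOSL1 was 11.6-fold and ATF3 10.98-fold lower with GW3965, while JUND was 2.00-fold lower, and BATF2 was 5.75-fold higher. At 24 h 2 members were lower with GW3965 than with rosiglitazone, against 4.6% of genes, and none was higher, against 6.09%. The differences were −0.76 for FOS and −0.39 for FOSL1 (log2). BATF2, at −0.81, passed without replicate 2 of T0901317, which shares the fit.

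**Figure D3:**
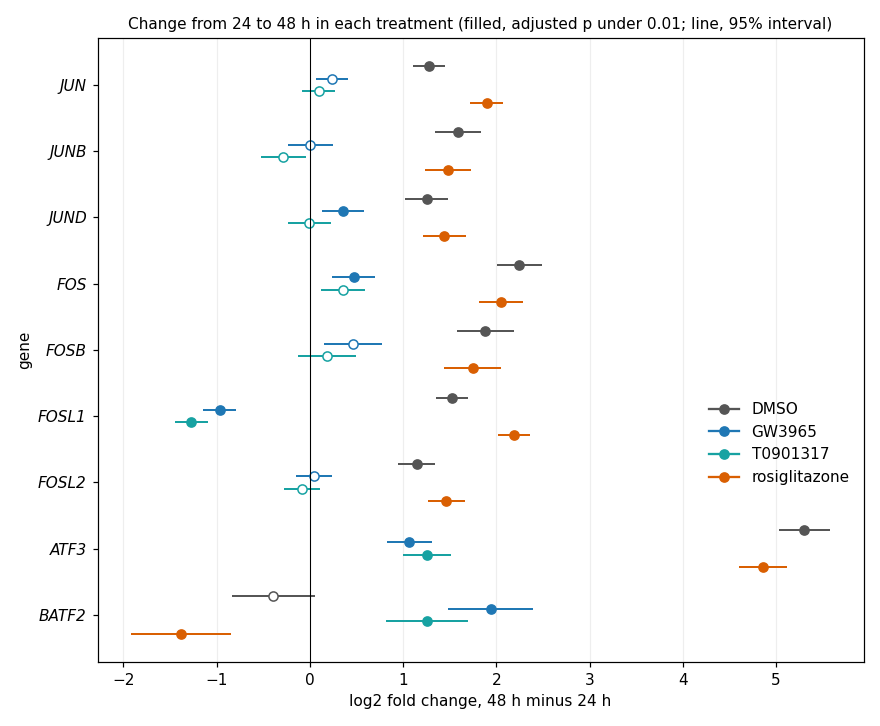
Log2 fold change from 24 to 48 h of each transcript in each of the 4 treatments, with 95% intervals, where filled points passed an adjusted p under 0.01. DMSO and rosiglitazone lie right of 0 for 8 members, ATF3 farthest right, and the LXR agonists lie nearer 0 for most. Among those 8, rosiglitazone lies beyond DMSO for JUN, JUND, FOSL1 and FOSL2.

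The change from 24 to 48 h was then taken within each treatment. With rosiglitazone 8 members rose and BATF2 fell, against 22.7% of genes that rose and 20.9% that fell, and the rises ran from 1.44 for JUND to 4.86 for ATF3 (log2). With GW3965 4 members rose (FOS, JUND, ATF3 and BATF2) and FOSL1 fell, against 16.2% and 15.2% of genes. ATF3 rose by 1.07 ± 0.12 and BATF2 by 1.94 ± 0.23, and FOS by 0.47 ± 0.11. The rise of JUND with GW3965, at 0.36 ± 0.11, was close to the threshold (edgeR adjusted p = 0.00938), and without replicate 1 of GW3965 at 24 h it was 0.21 (adjusted p = 0.0625). That call was lost in 23 of 32 fits that each left out 1 library. Without replicate 3 of GW3965 at 24 h, FOSB and JUN also passed, at 0.59 and 0.30. That made 6 members, with no share of all genes given for that fit. With T0901317 ATF3 and BATF2 rose, both by 1.26, and FOSL1 fell by 1.27, against 15.8% of genes that rose and 16.3% that fell. Scaling by library size alone moved the median of all genes by 0.10 in this comparison, and FOS then passed as well, at 0.45, as it did without replicate 1 or 3 of rosiglitazone at 48 h, at 0.35 in both cases. FOSL2 and JUND, which had not passed, crossed 0 under it to 0.023 and 0.095. JUNB was at −0.28 (95% interval −0.52 to −0.05, edgeR adjusted p = 0.0543).

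The difference between the drug effect at 48 h and that at 24 h was tested directly as an interaction over all 32 libraries. With GW3965 and with T0901317 8 of 9 members had a lower effect at 48 h and BATF2 a higher one, where the shares of all genes so called were 11.7% and 9.96% (GW3965) and 9.95% and 7.49% (T0901317). ATF3 moved most, by −4.24 ± 0.17 with GW3965 and −4.05 ± 0.18 with T0901317 (log2, SE; edgeR adjusted p = 1.97e-18 and 1.75e-17), since it was above DMSO at 24 h and below it at 48 h. JUND moved least with GW3965, by −0.90 ± 0.16. With rosiglitazone 2 members had a higher effect at 48 h, FOSL1 by 0.66 ± 0.11 and JUN by 0.62 ± 0.12 (edgeR adjusted p = 0.000378 and 0.00115), against 1.38% of genes. None had a lower effect with edgeR, against 1.06% of genes. An unadjusted p under 0.05, in either direction, was found for 5 of 9 members. The share of all genes by that rule is not given, so this count cannot be set against all genes. BATF2 was at −0.99 ± 0.35 (edgeR adjusted p = 0.0841) and had a lower effect, by −1.42, without replicate 1 of rosiglitazone at 48 h.

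Groups of 4 libraries can also be compared by whether they overlap. At 24 h, 2 members lay wholly above DMSO with GW3965 and 1 below, against 5.05% and 4.68% of genes. With T0901317, 3 lay above and none below, against 5.17% and 3.39%. With rosiglitazone, 6 lay above (FOS, FOSL1, FOSL2, JUN, JUNB and ATF3) and BATF2 below, against 13.2% and 12.4%.

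At 48 h, 8 members lay wholly below DMSO and BATF2 wholly above with both LXR agonists. The shares of genes below and above were 23.1% and 22.8% for GW3965 and 20.3% and 19.6% for T0901317. With rosiglitazone, 5 lay above (FOS, FOSL1, FOSL2, JUN and ATF3) and BATF2 below, against 17.4% and 15.7%. Between the LXR agonists at 24 h no member lay wholly above with GW3965, against 2.83% of genes, and at 48 h BATF2 lay wholly below, against 11.1%. Between GW3965 and rosiglitazone, 3 lay below and ATF3 above at 24 h, against 10% and 10.7%, and 8 below and BATF2 above at 48 h, against 25.7% and 24.4%.

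From 24 to 48 h in DMSO, 8 members lay wholly above and none below, against 23.6% and 22.9% of genes. The counts above and below were 4 and 1 with GW3965, against 20.2% and 18.4%, and 3 and 2 with T0901317, against 19.2% and 18.8%. With rosiglitazone they were 8 and 1, against 23.7% and 22.3%.

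For JUN, JUND, FOS, FOSB, FOSL2 and ATF3 the mean was lowest in DMSO at 24 h, highest with rosiglitazone at 48 h and next to that in DMSO at 48 h. For FOSB the 6 groups below DMSO at 48 h overlapped from neighbour to neighbour, from 3.47 to 4.79 CPM. The 6 lower groups of JUNB overlapped in the same way, from 54.2 to 66.9 CPM. Ordered by mean, ATF3 and FOSL1 each had 5 steps between neighbouring groups without overlap. For FOSL1 each LXR agonist at 48 h, rosiglitazone at 24 h and DMSO and rosiglitazone at 48 h stood apart from their neighbours. For BATF2 the highest groups were T0901317 and GW3965 at 48 h, and the lowest were rosiglitazone at 48 h and GW3965 at 24 h, which overlapped.

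The wider pathway was followed in gene lists of AP1 partners, targets and upstream signalling. These lists were written from general knowledge of AP1 with earlier results of these data known, so they are not independent of the data. Binding of AP1 at the listed targets was not tested here. Of 23 other bZIP factors tested in DMSO from 24 to 48 h, 17 rose and 1 fell, against 19.7% and 18.9% of all genes, with a median of 0.68 (log2) against 0.0016 over all genes. DDIT3, a stress-induced C/EBP relative, rose by 3.83 ± 0.14, JDP2, a JUN dimerization partner that represses AP1, rose by 2.80 ± 0.16, and ATF5 fell by 0.60 ± 0.06. With GW3965 at 48 h 14 of 23 were lower than in DMSO and none higher (edgeR; median −0.61), and with T0901317 15 were lower and 1 higher (median −0.63). Over all genes 17.5% were lower and 16.1% higher with GW3965, against 16.1% and 13.9% with T0901317. CREB5, a CRE-binding relative of ATF2, was at −2.22 ± 0.15 with GW3965 and −2.17 ± 0.15 with T0901317. With rosiglitazone at 48 h 7 were higher and 2 lower, against 12.3% and 13.1% of all genes, led by CEBPA at 1.74 ± 0.13 and CEBPD at 1.55 ± 0.12, factors of adipocyte and epithelial differentiation.

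Of 30 AP1 target genes tested, 19 rose and 5 fell in DMSO from 24 to 48 h, against 19.7% and 18.9% of all genes, with a median of 0.56. HBEGF and AREG, which encode ligands of EGFR, rose by 4.73 ± 0.14 and 3.58 ± 0.12, and TNC and MMP7, which encode a matrix protein and a matrix protease, fell by 1.91 ± 0.31 and 0.84 ± 0.11. At 48 h 19 targets were lower and 3 higher with GW3965, and 20 lower and 3 higher with T0901317 (medians −0.71 and −0.65), where all genes had the shares just given for the bZIP factors. AREG was at −3.92 ± 0.13 with GW3965 and −3.15 ± 0.12 with T0901317. EREG, a further EGFR ligand, was at −3.38 ± 0.12 with GW3965, and HBEGF at −2.91 ± 0.13 with T0901317. HMOX1, which encodes heme oxygenase 1, was higher with all 3 drugs, by 0.91 ± 0.17, 0.68 ± 0.17 and 2.91 ± 0.17. MMP7 was higher with T0901317, by 0.86 ± 0.12, and was at −1.26 ± 0.13 with rosiglitazone. TNC was higher with rosiglitazone, by 2.25 ± 0.37. AREG has a near-identical copy in the genome, so its counts are uncertain. Rosiglitazone at 48 h gave 8 targets higher and 6 lower, against 12.3% and 13.1% of all genes, with a median of 0.048.

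Among upstream kinases and factors, calls went in both directions. In DMSO over time 9 of 34 rose and 8 fell (median −0.022), where 19.7% and 18.9% of all genes did. At 48 h 6 were higher and 12 lower with GW3965 (median −0.099), and 6 were higher and 10 lower with T0901317 (median −0.15), against 16.1% higher and 17.5% lower of all genes with GW3965 and 13.9% and 16.1% with T0901317. With rosiglitazone 7 were higher and 5 lower, against 12.3% and 13.1%. TRIB1, a pseudokinase that binds MEK1, was at −1.17 ± 0.08 with GW3965 and −1.09 ± 0.08 with T0901317 at 48 h. ERBB2, a receptor of the EGFR family, was higher with GW3965 and T0901317, by 0.82 ± 0.10 and 0.76 ± 0.10. With rosiglitazone ERBB2 was at −0.59 ± 0.10. ELK3 was at 1.14 ± 0.14 with T0901317 and at −0.94 ± 0.16 with rosiglitazone. BRAF, a RAF kinase, was at −0.81 ± 0.12 with GW3965, and SRF, a factor that drives FOS transcription, at −0.83 ± 0.09 with T0901317.

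**Figure D4:**
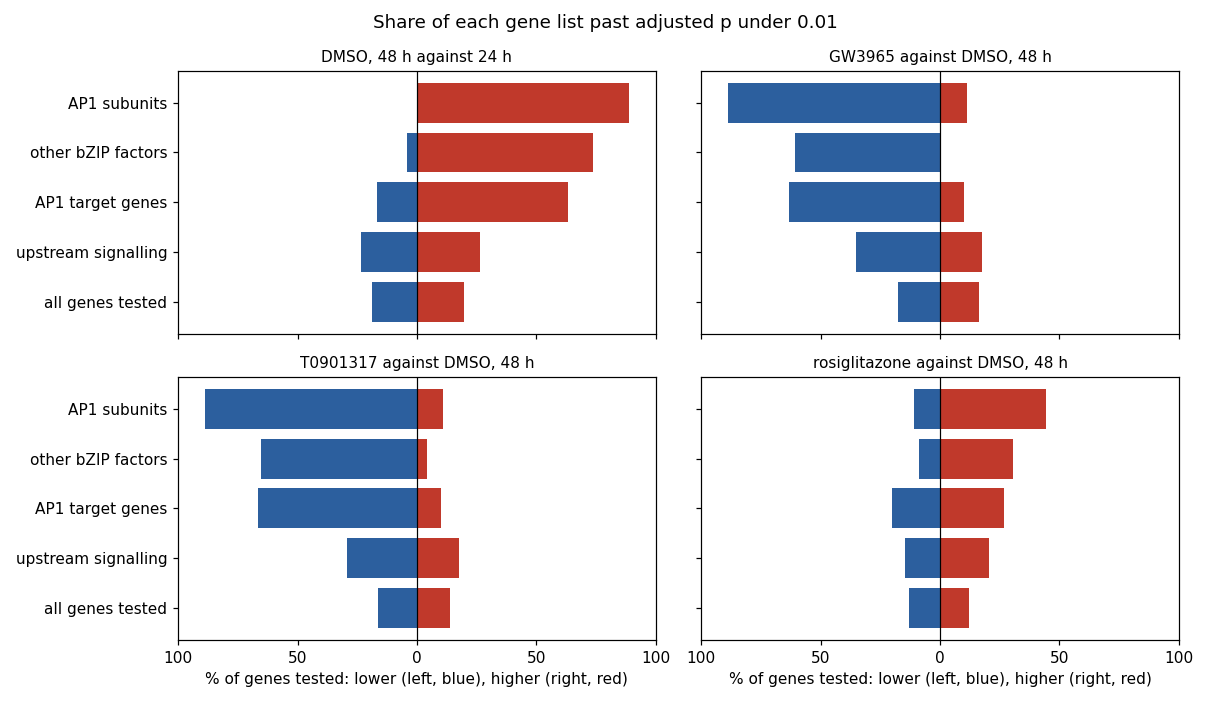
Share of the genes tested in each list that passed an adjusted p under 0.01, lower to the left and higher to the right, for the DMSO change over time and each drug at 48 h, with all genes tested as the bottom bar. The subunits, other bZIP factors and AP1 targets lean right in DMSO over time and left with both LXR agonists, and the upstream genes lean less.

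At 24 h, with GW3965, 4 of 22 other bZIP factors and 6 of 30 targets were higher and none of either list lower, among them DDIT3 at 0.99 ± 0.10 and VEGFA, a vascular growth factor, at 1.12 ± 0.06. Of all genes 1.86% were higher and 0.868% lower. With T0901317 5 bZIP factors and 7 targets were higher, against 1.33% of all genes, among them JDP2 at 1.18 ± 0.17. With rosiglitazone 3 bZIP factors were higher and 3 lower, against 5.81% and 6.52% of all genes, and 9 targets were higher and 10 lower, with HMOX1 at 2.54 ± 0.09 and EREG at −0.73 ± 0.07. Of the 34 upstream genes, MAP3K1 was lower with GW3965, none passed with T0901317, and 2 were higher and 2 lower with rosiglitazone.

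Genes whose 8 group means resembled each subunit most were sought among 14498 genes, by the root mean square difference of centred log2 CPM. For ATF3 these were HBEGF, at 0.285, and G0S2, a G0/G1 switch gene, at 0.355, while the nearest other subunit, FOS, was at 1.10. HBEGF shared with ATF3 the very low level in DMSO at 24 h and the high levels in DMSO and rosiglitazone at 48 h. FOSL1 was nearest to LAMA3, a laminin chain of epithelial basement membranes, at 0.335, and FOS to THRB, a thyroid hormone receptor, at 0.189. For JUN the nearest were TRIM25, at 0.0849, and C6orf141, at 0.107, for FOSL2 TIMM44 and SNORD63, at 0.0786 and 0.0865, and for JUND HAX1 and MUS81, at 0.0723 and 0.0793. JUNB was nearest to LONRF3 and PHC2, at 0.103 and 0.107, and FOSB to SNORD22 and AC138128.1, at 0.112 and 0.116. Small nucleolar RNAs such as SNORD22 lie inside host genes, and their counts can hold reads of the host. BATF2 was nearest to TRIM34 and TRIM6-TRIM34, at 0.316 in both cases, which are overlapping annotations of shared sequence. The second genes of FOS and FOSL1 were CDC42EP1, at 0.219, and RP11-290L1.3, at 0.376.

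In bulk RNA, fewer cells that express a gene and less RNA in each cell cannot be told apart, and this holds for each change above. The summed level of the leukocyte markers at 48 h was 7.08 to 8.92 CPM in DMSO, 14.4 to 18.8 with GW3965, 15.5 to 16.3 with T0901317 and 10.7 to 12.0 with rosiglitazone. CD68 was at 6.58 to 16.4 CPM and CD14 at 0.441 to 3.88 CPM over all libraries, while PTPRC and CD3E reached at most 0.111 and 0.155 CPM in any library, and its part in the results was not tested. Other properties of the libraries also moved with the groups at 48 h. The mitochondrial share of counts was 1.85% to 2.74% in DMSO, 2.80% to 3.27% with GW3965, 2.57% to 3.75% with T0901317 and 2.37% to 2.75% with rosiglitazone. The 10 most abundant genes took 6.36% to 6.67% of counts in DMSO, 7.51% to 7.83% with GW3965, 7.24% to 7.69% with T0901317 and 6.46% to 6.602% with rosiglitazone. The summed level of the 11 epithelial markers was 18298 to 19434 CPM in DMSO, 17612 to 18345 with GW3965, 15556 to 17246 with T0901317 and 19796 to 23555 with rosiglitazone. For the fibroblast markers it was 5.31 to 7.56 CPM in DMSO, 8.85 to 9.89 with GW3965, 6.43 to 9.45 with T0901317 and 7.39 to 8.39 with rosiglitazone. The part of these properties in the results was not tested either.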

How the data were processed

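RNA-seq of HT29 cells was used from 32 libraries, 4 in each of 8 groups, which were assigned from the sample labels. The authors deposited raw read counts per Ensembl gene in 1 table for each time point, and no normalization had been applied. The submitters' processing notes name TopHat, Cufflinks, Bowtie and MACS with hg19, while the sources used here state neither the counting program nor its strand setting. ChIP-seq peak lists were not used here. Members, gene lists and tests were chosen with earlier results of these data known.

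Counts were fitted with edgeR 4.0.16 (quasi-likelihood test, TMM scaling, filterByExpr; limma 3.58.1, R 4.3.3), with 1 fit of 16 libraries at each hour for drug effects, and 1 of 32 libraries for changes over time and interactions. P-values were adjusted by the Benjamini-Hochberg method over all genes tested, and a gene passed at an adjusted p under 0.01, two-sided. The SE was the log2 fold change divided by the square root of F, and 95% intervals were 1.96 SE to each side. The procedure was tested on simulated data. All 9 members were named, together with, for each member, the 2 genes with the most similar group means. Genes of the lists were named only from the largest changes that passed in a comparison (2 in each direction). Not all of those genes are named in the text. Total counts were 21044798 to 51332656 per library. No 2 libraries of a group agreed within sampling noise. Alternatives were DESeq2 1.42.0, scaling by library size, no filter, a replicate block, other sets of libraries, fold thresholds and leaving out each library. Promoter windows came from RefSeq (GRCh38.p14) and were read with Python 3.11.15.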

Additional observations from a re-analysis of the deposited data

Results flagged for a closer look

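The drug effect differed between 48 h and 24 h for 9 of 9 transcripts with each LXR agonist, by the interaction test over 32 libraries (edgeR, adjusted p under 0.01). With GW3965 the effect at 48 h minus that at 24 h (log2) was −1.04 for JUN, −1.58 for JUNB and −0.90 for JUND. It was −1.78 for FOS, −1.42 for FOSB, −2.50 for FOSL1 and −1.10 for FOSL2, and −4.24 for ATF3 and 2.33 for BATF2. With T0901317 it was −1.18 for JUN, −1.87 for JUNB and −1.26 for JUND. For the FOS genes it was −1.89 for FOS, −1.70 for FOSB, −2.80 for FOSL1 and −1.23 for FOSL2, and it was −4.05 for ATF3 and 1.65 for BATF2. With rosiglitazone FOSL1, at 0.66, and JUN, at 0.62, differed between the hours.

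A single replicate lay far from the other 3 in 7 of the 72 groups of 4 libraries examined, where the share of the group's range taken by the gap to the nearest replicate was above Dixon's 95% critical value. Chance gives about 1 in 20 groups. The gap took 0.895 of the range for FOSB in DMSO at 48 h, where replicate 3 was high, and 0.876 for FOSL2 with GW3965 at 48 h, where replicate 3 was high. It took 0.870 for JUND with GW3965 at 24 h, where replicate 1 was low, and 0.860 for JUNB with rosiglitazone at 24 h, where replicate 1 was high. For ATF3 it took 0.890 with rosiglitazone at 24 h, where replicate 3 was low, and 0.909 with T0901317 at 48 h, where replicate 1 was low. For BATF2 it took 0.927 in DMSO at 24 h, where replicate 4 was high.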

How the results depend on the processing

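No called value of a member changed sign under the alternatives run. Of 153 values, DESeq2 gained 9 calls and lost 0, scaling by library size gained 4, and no filter on low counts gained 5. Fits of other sets of libraries gained 3 of 90 (all 32 libraries) and 4 of 99 (only the groups compared). The deviations of same-numbered libraries correlated at −0.411 to 0.489 at 24 h and −0.167 to 0.300 at 48 h. Differently numbered libraries had similar ranges, −0.513 to 0.411 at 24 h and −0.292 to 0.235 at 48 h. However, replicate 3 had the lowest mitochondrial share of every group at 48 h, from 1.85% (DMSO) to 2.80% (GW3965). Its share of counts in the 10 most abundant genes was also the lowest of every group at that hour. Whether the replicate numbers pair the libraries was therefore not settled. With the replicate number as a block 1 call was lost, JUND with GW3965 over time, at 0.36 (adjusted p = 0.0114), and FOSB with GW3965 at 24 h, which had not passed, was −0.0053. Leaving out 1 library lost 26 and gained 25 calls among 3456 values, and 23 of those lost were JUND with GW3965 over time.

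Counts of members moved as follows. No share of all genes is given for the alternative fits or with 1 library left out. The counts from those fits therefore cannot be set against all genes. With GW3965 at 24 h 2 were higher under DESeq2 and 2 without the filter, and with T0901317 at 24 h 2 were higher under DESeq2, 2 in the fit of the groups compared and 0 at 2-fold. With rosiglitazone 4 higher at 24 h became 2 at 1.5-fold and 1 at 2-fold, and at 48 h 1 at 2-fold. For GW3965 against T0901317 at 24 h 1 was lower under DESeq2, 1 under library size scaling and 1 without the filter. At 48 h 3 were higher under DESeq2, 2 without the filter, 2 in the fit of all 32 libraries, 2 in that of the groups compared, 0 at 1.5-fold and 0 at 2-fold. For GW3965 against rosiglitazone at 24 h 1 was lower at 1.5-fold and 0 at 2-fold. With GW3965 at 48 h 0 were higher and 5 lower at 2-fold, and over time 2 were higher at 1.5-fold, 2 at 2-fold and 0 lower at 2-fold. The rosiglitazone interaction had 0 higher at 2-fold. Smaller moves were seen for T0901317 over time (3 higher under DESeq2, library size scaling and no filter), GW3965 against rosiglitazone at 24 h (3 lower under DESeq2 and no filter) and GW3965 over time (5 higher under DESeq2, 6 under library size scaling, 3 with the block). Rosiglitazone had 5 higher at 24 h in the fits of all 32 libraries and of the groups compared, and 5 at 48 h in both and under DESeq2, and the GW3965 interaction had 7 lower at 2-fold. With 1 library left out, counts ran from 3 to 5 (rosiglitazone, 24 h, higher), 1 to 5 (GW3965, 24 h, higher), 1 to 2 (T0901317, 24 h, higher), 0 to 1 (GW3965 against T0901317, 24 h, lower), 1 to 2 (the same, 48 h, higher), 0 to 1 (rosiglitazone interaction, lower), 2 to 3 (GW3965 against rosiglitazone, 24 h, lower), 4 to 5 (rosiglitazone, 48 h, higher), 3 to 6 (GW3965 over time, higher) and 2 to 3 (T0901317 over time, higher).

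At 2-fold, other bZIP factors numbered 0 higher with GW3965, 1 with T0901317 and 1 higher and 1 lower with rosiglitazone at 24 h. At 48 h they numbered 6 lower with GW3965, 0 higher and 8 lower with T0901317, and 2 higher and 0 lower with rosiglitazone, and in DMSO over time 9 higher and 0 lower. Upstream genes numbered 0 lower with GW3965 and 0 higher and 0 lower with rosiglitazone at 24 h. At 48 h they numbered 0 and 1 with GW3965, 1 and 1 with T0901317, 0 and 0 with rosiglitazone, and in DMSO over time 1 and 0. Targets numbered 0 higher with T0901317 and 4 higher and 0 lower with rosiglitazone at 24 h. At 48 h they numbered 0 and 8 with GW3965, 0 and 11 with T0901317 and 3 lower with rosiglitazone, and in DMSO over time 12 and 1. Of all genes, 5.09% rose by at least 2-fold in DMSO over time. No other share of all genes at a fold threshold is given. The other counts at 1.5-fold or 2-fold, of lists or of members, therefore cannot be set against all genes.

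Values that had not passed crossed 0 as follows (log2). Library size scaling gave −0.050 for FOSB with GW3965 and −0.020 for JUN with T0901317 at 24 h. It gave −0.0030 for FOSB and −0.063 for JUNB with rosiglitazone at 48 h, −0.049 for FOSB between the LXR agonists at 48 h, and 0.023 for FOSL2 and 0.095 for JUND with T0901317 over time. JUND between the LXR agonists at 24 h was 0.0026 under DESeq2, 0.0060 without the filter and 0.0035 in the fit of all 32 libraries, and JUND with T0901317 over time was 0.0095 without the filter. With 1 library left out, values at 24 h ran from −0.12 to 0.15 (FOSB, GW3965) and −0.0042 to 0.053 (JUN, T0901317). Between the LXR agonists at 24 h they ran from −0.061 to 0.049 (FOS), −0.025 to 0.085 (FOSL1), −0.092 to 0.094 (JUNB) and −0.063 to 0.15 (JUND), and between GW3965 and rosiglitazone from −0.13 to 0.029 (JUN) and −0.11 to 0.073 (JUNB). At 48 h they ran from −0.012 to 0.24 (JUNB, rosiglitazone), −0.082 to 0.12 (FOSB) and −0.0085 to 0.18 (ATF3), both between the LXR agonists. Over time they ran from −0.060 to 0.11 (FOSL2, GW3965), −0.11 to 0.069 (JUNB, GW3965) and −0.084 to 0.051 (JUND, T0901317), and for the JUNB rosiglitazone interaction from −0.24 to 0.013. The causes were not tested. BATF2, with 14 to 349 counts, is the member most limited by depth. Other windows around the start site and peaks in either replicate were not run, since peaks were not used.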
